A study of Mus musculus with 62 samples.

Results

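Genes of red blood cells were followed in long-RNA sequencing of mouse hippocampus: Hba-a1 and Hba-a2, which encode the adult alpha chain of haemoglobin, Hbb-bs and Hbb-bt, which encode the adult beta chain, and Alas2, which encodes the erythroid form of the enzyme that starts haem synthesis. They are 5 of the 53975 gene identifiers in the deposited tables, were chosen by gene name, and all 5 passed the filter of a mean of at least 1 TPM (transcript abundance corrected for length and scaled to the same total in every library) over the hippocampal libraries. The 17 hippocampal libraries came from APP NL-G-F mice (3 at 3 months, 3 at 6 months and 3 at 12 months) and from C57BL/6J control mice (2 at 3 months, 3 at 6 months and 3 at 12 months). APP NL-G-F is a knock-in strain in which the mouse's own App gene is humanised and carries familial Alzheimer's disease mutations, so it is driven by the App promoter and not by a transgene. The 14 comparison libraries came from HT-22, an immortalised mouse hippocampal cell line at passage 4. These cells received a scramble LNA (locked nucleic acid, an antisense oligonucleotide) at 50 uM or an LNA against Hsf1 at 150 nM for 24 hours and then 30 uM of amyloid beta 1-42 peptide (4 scramble and 3 anti-Hsf1 libraries) or of the reversed 42-1 peptide (4 and 3). Perfusion of the mice to clear the blood is not described in the labels.

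Haemoglobin is a tetramer of alpha and beta chains, each holding a haem group that binds oxygen. In adults its messenger RNA is made in erythroid precursors of the bone marrow and spleen, and immature red cells in the circulation (reticulocytes) still carry it, so tissue that contains blood yields globin reads. Neurons have also been described to hold globin transcripts at a low level. In a bulk library fewer cells of a type and less RNA per cell cannot be told apart.

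The gene copies are shown first because their similarity limits what the values of a single copy can say. On GRCm38, Hba-a1 lies at chr11:32283511-32284465 and Hba-a2 at chr11:32296489-32297298, both on the plus strand, and Hbb-bs lies at chr7:103826534-103828096 and Hbb-bt at chr7:103812524-103813996, both on the minus strand. In the GENCODE M21 models the coding sequences of Hba-a1 and Hba-a2, of 426 bases, differed at 1 base, written C381T with the Hba-a1 base first and positions counted from the A of the start codon. Those of Hbb-bs and Hbb-bt, of 441 bases, differed at 1 base as well, C417T with the Hbb-bs base first. Identity was 99.77% in both pairs, with identical runs of 380 and 416 bases. The 90 coding bases around each difference, all within the last exon, are printed 5′ to 3′ with the differing base in capitals (chr11:32284277-32284366 and chr11:32297094-32297183 for the alpha copies, chr7:103826680-103826769 and chr7:103812671-103812760 for the beta copies).
Hba-a1: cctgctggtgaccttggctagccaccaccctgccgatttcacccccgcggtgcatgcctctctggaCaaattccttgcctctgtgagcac
Hba-a2: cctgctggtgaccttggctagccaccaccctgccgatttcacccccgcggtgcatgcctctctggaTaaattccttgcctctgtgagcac
Hbb-bs: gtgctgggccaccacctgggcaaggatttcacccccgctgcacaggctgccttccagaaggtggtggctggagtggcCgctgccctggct
Hbb-bt: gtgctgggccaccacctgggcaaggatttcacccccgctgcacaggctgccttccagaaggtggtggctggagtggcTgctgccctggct
A read inside the coding sequence that misses this base fits both copies, and only the untranslated ends (transcripts of 699 bases for Hba-a1, 554 for Hba-a2, 628 for Hbb-bs and 703 for Hbb-bt) separate them further. The alpha-globin sum and the beta-globin sum are therefore given beside the single copies.

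The alpha and beta genes sit in separate clusters on different chromosomes and are known to be transcribed together in erythroid cells. The stretch before the start site is printed for an alpha and a beta copy because the levels of the chains varied together across libraries. The sequences are from RefSeq (GRCm38.p6), end just before the start site and leave out annotated exons. Capitals mark short motifs: the CCAAT box, then in the alpha stretch the box CCACCC, which erythroid Krüppel-like factors are known to bind, and nearest the start the TATA-like element ATATAA. The alpha stretch of 120 bases is chr11:32296369-32296488 on the plus strand and the beta stretch of 83 bases is chr7:103827929-103828011 on the minus strand.
Hba-a2: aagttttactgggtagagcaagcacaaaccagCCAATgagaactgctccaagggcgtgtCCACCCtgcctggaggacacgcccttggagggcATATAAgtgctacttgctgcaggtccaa
Hbb-bs: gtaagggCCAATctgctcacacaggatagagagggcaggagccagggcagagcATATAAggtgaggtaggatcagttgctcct
Within 250 bases before the start, all 4 globin genes held ATATAA (searched on the forward strand), which 5.6% of the 32851 RefSeq promoter windows hold. CCAAT on either strand was also in all 4, against 33.8% of windows, and so was GATAAG, the core of the binding motif of GATA factors, against 6.5%. CCACCC on either strand was in Hba-a1, Hba-a2 and Hbb-bt and in 28.1% of windows, and Alas2 held CCACCC at 3 overlapping places on the opposite strand and none of the other 3 motifs. The windows of Hba-a1 and Hba-a2 shared an unbroken run of 247 bases. These matches describe letters only.

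Levels are given as scaled TPM, which is TPM divided by a median-of-ratios factor fitted over the hippocampal libraries and separately over the HT-22 libraries. Levels of different genes can be compared because TPM is per length. Across the 17 hippocampal libraries the order of mean levels was Hbb-bs (59.9 ± 19.3, SD, n = 17), Hba-a1 (40.6 ± 17.4), Hba-a2 (33.3 ± 12.1), Hbb-bt (26.0 ± 9.60) and Alas2 (3.02 ± 1.20). Neighbours in this order among the globins overlapped in their ranges, and Alas2 lay below every globin value. The 4 globin genes together took from 0.00785% to 0.0226% of all TPM in a library, and Hbb-bs ranked between 628 and 3240 among all genes. All 4 globin genes were above 0 in every hippocampal library.

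**Figure D1:**
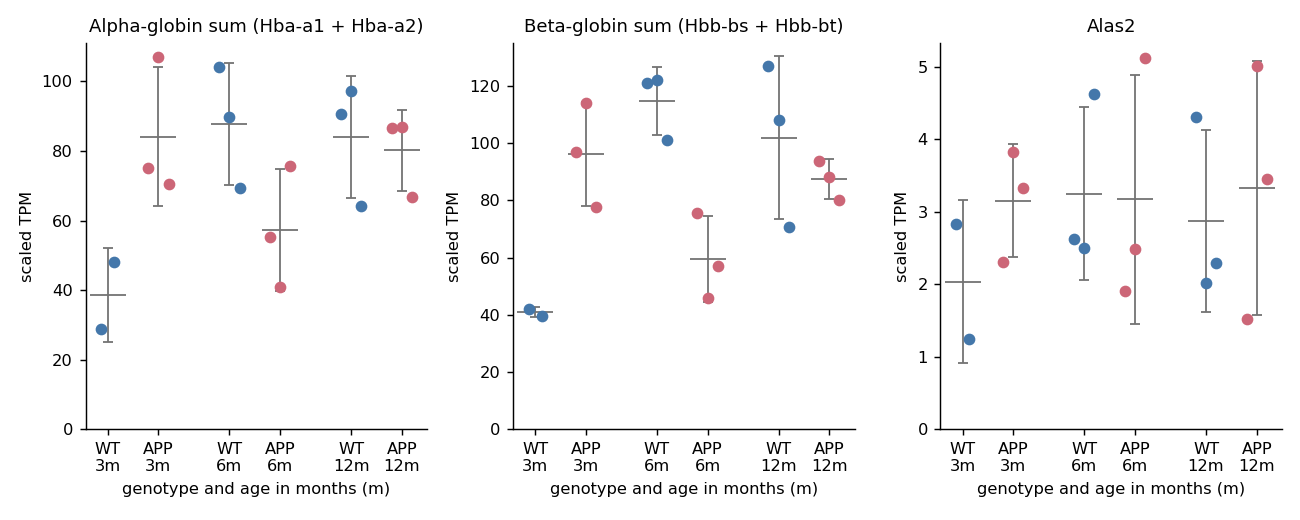
Alpha-globin sum, beta-globin sum and Alas2 in scaled TPM (vertical axes, from 0) for each genotype and age (horizontal axis; WT is C57BL/6J, APP is APP NL-G-F, m is months). Points are libraries, horizontal marks are group means and bars are SD; the 2 WT libraries at 3 months have the lowest group mean of the beta-globin sum, 40.9, and the 3 WT libraries at 6 months the highest, 115.0.

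Hbb-bs, the more abundant beta copy, separated the genotypes at 3 and at 6 months, in opposite directions. In APP libraries at 3 months it stood at 67.7, 74.5 and 51.1 scaled TPM, and in control libraries at 29.3 and 27.5. At 6 months it stood at 52.3, 33.6 and 42.1 in APP libraries and at 83.1, 88.9 and 67.1 in control libraries. At 12 months the APP values were 68.2, 63.3 and 53.9 and the control values 89.3, 72.3 and 54.9. All APP libraries lay above all control libraries at 3 months, all lay below at 6 months, and the groups overlapped at 12 months. With so few libraries per group, some genes separate the genotypes by chance. The share of all genes that do so was not counted, here or for the genes and sums below. Separation alone is therefore a description of the values.

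Fitted on log2(scaled TPM + 1) with limma over 17840 genes, Hbb-bs rose by 1.14 ± 0.22 (SE) in APP at 3 months (adjusted p = 0.0462) and fell by 0.90 ± 0.19 at 6 months (adjusted p = 0.0364). Hbb-bs was the only member called at either age. At 3 months 0.297% of all genes tested were called and at 6 months 1.43%. At 12 months the change was -0.20 ± 0.19 with adjusted p = 0.962, no member was called, and the share of all genes called was 0.454%. Averaged over the ages the Hbb-bs difference was 0.01 ± 0.12 (adjusted p = 0.979). No member was called in this average, against 0.219% of all genes. The genotype difference itself varied between ages for Hbb-bs (limma interaction F = 24.8, adjusted p = 0.0173) and for Hbb-bt (F = 16.7, adjusted p = 0.0413). Controls of 6 and 12 months differed from all other libraries in sex-linked transcripts, as given below. Age and sex therefore cannot be told apart in this interaction, in which all 5 sex-linked genes listed were also called. Of the 5 members, 2 were called in the interaction, against 0.448% of all genes. The 2 are near-identical copies with reads that can fit both, so they are not separate observations. The Hbb-bt call depended on single libraries. Its limma adjusted p was 0.0947 without APP replicate 3 at 6 months and 0.0271 without APP replicate 1 at 6 months. Without either 3-month control library, which leaves a lone library that is assumed to vary like the other groups, the Hbb-bs interaction had adjusted p = 0.0592 and 0.0888. The 3-month and 6-month calls sat close to the threshold. Leaving out any single library, including libraries of other groups, moved the adjusted p of Hbb-bs at 3 months between 0.0115 and 0.252 and at 6 months between 0.0228 and 0.124, while its change stayed between 1.03 and 1.29 and between -1.05 and -0.74.

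Hbb-bt, the less abundant beta copy, followed Hbb-bs. Its levels at 3 months were 29.2, 39.9 and 26.6 scaled TPM in APP libraries against 12.8 and 12.2 in controls. At 6 months they were 23.4, 12.3 and 14.8 against 38.1, 33.3 and 33.5. The groups did not overlap at either age, and at 12 months the APP values of 25.7, 25.0 and 26.0 lay inside the control range of 15.9 to 37.5. The differences of 1.26 ± 0.30 at 3 months and -1.06 ± 0.27 at 6 months missed the threshold (limma adjusted p = 0.0959 and 0.0624).

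With the copies summed before the fit, beta globin had means of 96.3 ± 18.3 scaled TPM in APP (n = 3) and 40.9 ± 1.77 in controls (n = 2) at 3 months, a rise of 1.20 ± 0.23 log2 (limma adjusted p = 0.0462). At 6 months the means were 59.5 ± 15.0 and 115.0 ± 12.2 (n = 3 each), a fall of 0.96 ± 0.21 (-0.958, adjusted p = 0.0366). At 12 months the change was -0.18 ± 0.21 (adjusted p = 0.967). The interaction of genotype with age was F = 24.2 (adjusted p = 0.0196). Averaged within age, the APP-minus-control difference of the beta sum was 0.02 log2, and 4000 exact permutations gave a two-sided p of 0.949 (0.949 adjusted over the 3 sums and genes tested this way).

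Some markers of brain region and cell type also separated the genotypes at 3 months. The summed level of 7 hippocampal identity genes was 97.3, 144.8 and 199.6 scaled TPM in APP libraries against 262.3 and 260.9 in controls, with a median change of -0.91 over the 7 against 0.01 (0.007) over all genes. Fibcd1, a marker of hippocampal pyramidal neurons, fell by 1.45 (-1.448, limma adjusted p = 0.0313). It was the 1 of the 7 called, against 0.297% of all genes. The 5 oligodendrocyte markers summed to 1359 to 2258 in APP and 1217 to 1315 in controls, and the meningeal fibroblast markers to 42.7 to 68.2 and 72.3 to 75.8, with none called. These sums did not overlap between the genotypes. The sums of neuron, astrocyte, microglia, endothelial, mural and choroid plexus markers did overlap at 3 months. For neuron markers they were 1668 to 2963 in APP and 2699 to 3056 in controls. At 6 months the hippocampal identity sums overlapped, at 228.8 to 289.6 in APP and 211.2 to 277.9 in controls. C1ql2, a marker of the dentate gyrus, rose by 1.03 (limma adjusted p = 0.0297). It was the 1 of the 7 called at 6 months, against 1.43% of all genes. Fibcd1 and C1ql2 were also called in the limma interaction (F = 15.9 and 18.8, adjusted p = 0.047 and 0.0341), where 0.448% of all genes were called. The part of the dissected region or cell mixture in the globin differences was not tested.

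Several measured features moved with the 6-month difference. The scaling factors of the 3 control libraries at 6 months were 0.686 to 0.84 and those of the 3 APP libraries 1.13 to 1.46, so the factors of the groups did not overlap. In TPM as deposited, the beta sum was 92.6, 52.1 and 82.8 in APP libraries and 83.1, 96.0 and 84.4 in controls. These ranges overlapped, and the change was -0.25 (limma adjusted p = 0.289) while the median gene changed by +0.60. Short transcripts were also lower in APP at 6 months: 289 other protein-coding genes with a longest transcript under 800 bases had a median change of -0.53, against 0.09 in 5234 genes of 4000 bases or more. Of those 289 genes, 34 fell further than Hbb-bs. With the trend on transcript length removed from each library, the beta sum at 6 months changed by -0.75 (adjusted p = 0.118) and was no longer called. At 3 months the short genes had a median change of 0.11, 2 of the 289 rose more than Hbb-bs, and the beta sum without the length trend rose by 1.176 (adjusted p = 0.0416).

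The libraries also differed in sex-linked transcripts. Xist, transcribed from the inactive X chromosome of females, was 71.2 to 138.0 scaled TPM in the 11 APP and 3-month control libraries and 0.266 to 0.522 in the 6 control libraries of 6 and 12 months, where the Y-linked Ddx3y was 18.6 to 28.3. The 3-month comparison was therefore between libraries of the same sex-linked pattern, whereas genotype and sex cannot be told apart at 6 and 12 months. Beta-globin sums were 39.7 to 114.0 in the 11 libraries and 70.8 to 127.0 in the other 6, so they overlapped.

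**Figure D2:**
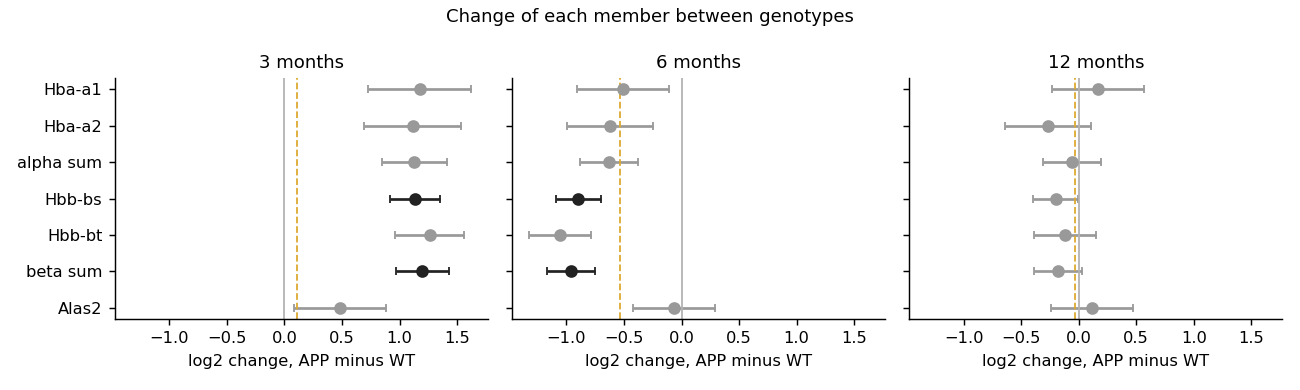
Log2 change between APP and control on the log2(scaled TPM + 1) scale (horizontal axis) of each member and of the summed copies (vertical axis) at 3, 6 and 12 months; points are limma estimates, bars are SE, and black marks an adjusted p below 0.05. The dashed line is the median of 289 other protein-coding genes of short transcripts (0.11, -0.53 and -0.04); Hbb-bs and the beta sum are black on the right at 3 months and on the left at 6 months.

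Hba-a1 and Hba-a2 had wider spread than the beta genes and were not called at any age. Hba-a1 stood at 35.2, 67.7 and 45.8 scaled TPM in APP libraries at 3 months and at 20.9 and 20.4 in controls. At 6 months it stood at 35.5, 16.8 and 32.6 in APP and at 71.6, 25.7 and 31.6 in controls, and at 12 months at 59.0, 51.2 and 37.7 against 60.7, 54.6 and 23.9. The genotypes did not overlap at 3 months and overlapped at the later ages. The limma differences were 1.175 ± 0.45 (adjusted p = 0.261), -0.51 ± 0.40 (0.569) and 0.17 ± 0.40 (0.997). The 6-month difference turned to 0.185 with TPM as deposited.

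Hba-a2 stood at 39.8, 39.2 and 24.5 scaled TPM in APP libraries at 3 months and at 8.0 and 27.6 in controls. At 6 months it stood at 19.7, 24.3 and 43.2 against 32.3, 64.1 and 37.8, and at 12 months at 27.8, 35.7 and 29.1 against 29.9, 42.6 and 40.3. The genotypes overlapped at every age. The alpha sum did not overlap between genotypes at 3 months, with 75.0, 107.0 and 70.4 in APP against 28.9 and 48.0 in controls. Its difference there was 1.13 ± 0.28 (limma adjusted p = 0.105), at 6 months -0.63 ± 0.25 (0.216) and at 12 months -0.06 ± 0.25 (0.998). With TPM as deposited the 6-month difference of the alpha sum turned to 0.081 and that of Hba-a2 to 0.079, where the median gene changed by 0.60. The interaction for the alpha sum was F = 11.1 with adjusted p = 0.0839. Averaged within age the difference was 0.15 (two-sided exact permutation p = 0.603, 0.904 adjusted over 3).

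Alas2, at chrX:150547375-150570638 on the plus strand, is the haem enzyme of red cell precursors. Its levels were 2.30, 3.83 and 3.33 scaled TPM in APP at 3 months, 1.91, 2.48 and 5.12 at 6 months and 1.52, 5.01 and 3.45 at 12 months. In controls they were 2.83 and 1.24, then 2.62, 2.50 and 4.62, then 4.31, 2.02 and 2.29. The genotypes overlapped at all 3 ages. The limma adjusted p was 0.673, 0.951 and 0.998 for differences of 0.48 ± 0.40, -0.07 ± 0.36 and 0.12 ± 0.36. Averaged within age the difference was 0.18 (two-sided exact permutation p = 0.434, 0.904 adjusted over 3).

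Between 3 and 12 months, Hbb-bs rose in control libraries by 1.29 ± 0.22 (limma adjusted p = 0.0459). It was the 1 member called there, where 0.0617% of all genes were called. The other globins differed by 1.03 for Hba-a1, 1.25 for Hba-a2 and 1.10 for Hbb-bt, with adjusted p from 0.317 to 0.559, and the beta sum by 1.26 ± 0.23 with adjusted p = 0.0942. In APP libraries the Hbb-bs difference was -0.05 ± 0.19 (adjusted p = 0.941), and no member was called although 3.34% of all genes were. The control comparison rests on the same 2 libraries at 3 months as the genotype comparison, and it runs from Xist-positive to Ddx3y-positive libraries. Leaving out either 3-month control library ended the Hbb-bs call, with adjusted p of 0.127 and 0.306.

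Alpha and beta globin varied together over the libraries. The alpha-to-beta ratio was 0.883 ± 0.175 (SD, n = 17), with a range of 0.684 to 1.33. The lowest ratio was in a control library at 3 months and the highest in an APP library at 6 months. Over the 17 libraries the log2 sums had Pearson r = 0.873 and Spearman rho = 0.85 (permutation p = 1e-05, the smallest that the permutations can give, and 8e-05, or 3e-05 and 0.00024 adjusted over 3 pairs). Without the 2 libraries farthest from the median of alpha globin r was 0.815. Deviations from the group means, which leave out genotype and age, had r = 0.599. Within groups the chains still moved the same way, less closely.

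**Figure D3:**
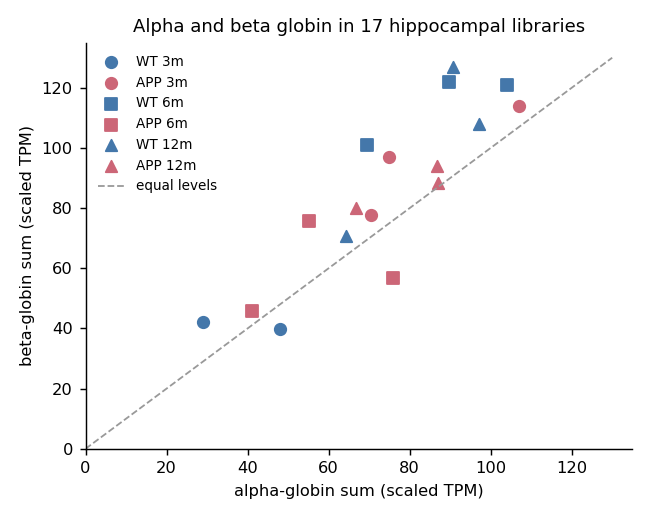
Beta-globin sum against alpha-globin sum, both in scaled TPM, for the 17 hippocampal libraries; colour is genotype (blue WT, red APP), shape is age, and the dashed line marks equal levels. The 2 WT libraries at 3 months lie at beta values of 42.2 and 39.7, and the points climb together along the line.

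Alas2 did not follow the globins. Its r was 0.249 with the alpha sum (permutation p = 0.34, adjusted 0.35) and 0.241 with the beta sum (permutation p = 0.35, adjusted 0.35), and rho was 0.282 and 0.23 (permutation p = 0.273 and 0.371, both 0.371 adjusted). Without the 2 farthest libraries r was 0.335 and -0.007, and the deviations from group means gave 0.004 and -0.021.

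The division of reads between copies was steady for beta and unsteady for alpha globin. Hbb-bs made up 70.0% ± 3.28 of the beta sum (SD, n = 17), with a range of 65.1% to 77.5%. Hba-a1 made up 54.4% ± 13.1 of the alpha sum, from 28.6% in a control library at 6 months to 72.3% in a control library at 3 months. The beta copies correlated with r = 0.925 (permutation p = 1e-05, adjusted 3e-05) and the alpha copies with r = 0.247 (permutation p = 0.357, adjusted 0.485), with deviations from group means at r = 0.803 and -0.212. Spearman rho was 0.877 (permutation p = 1e-05) and 0.142 (0.585), and without the 2 farthest libraries r was 0.891 and 0.218. After removing group means the residual SD was 0.562 log2 for Hba-a1 and 0.527 for Hba-a2, higher than in 93.5% and 92.4% of the genes tested, but 0.344 for their sum. For the beta genes it was 0.259 (Hbb-bs), 0.369 (Hbb-bt) and 0.279 (sum), against a median of 0.227 over all genes.

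**Figure D4:**
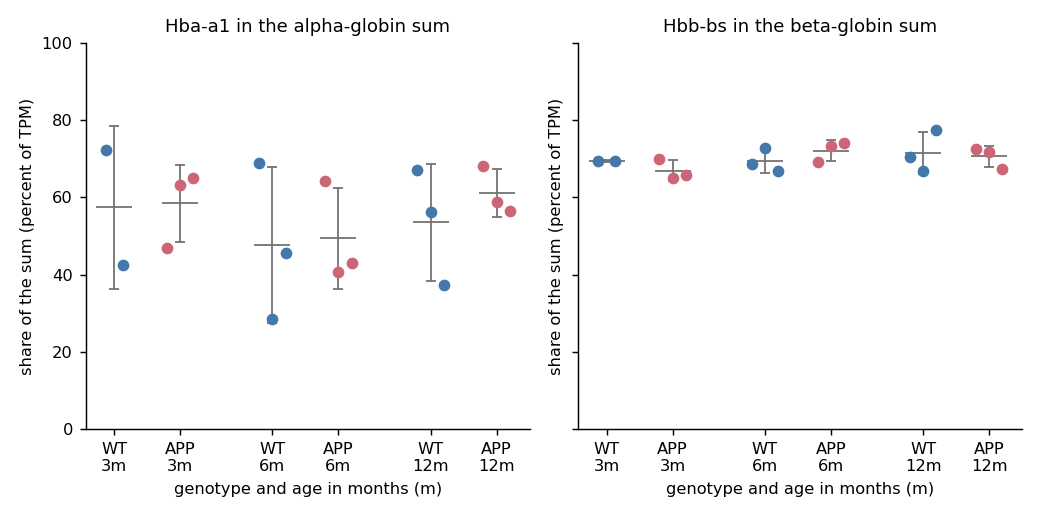
Share of the alpha-globin sum assigned to Hba-a1 and of the beta-globin sum assigned to Hbb-bs (vertical axis, percent of TPM from 0 to 100) by genotype and age; points are libraries, horizontal marks are group means and bars are SD. The alpha share spreads from 28.6% to 72.3% and the beta share from 65.1% to 77.5%.

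HT-22 cells are a cultured line and hold no blood. Hbb-bs and Hbb-bt were listed at 0 in all 14 libraries. Hba-a1 was above 0 in 3 of 14, at 0.823, 0.439 and 0.554 scaled TPM, and Hba-a2 in 1 of 14, at 0.369 (in the library with Hba-a1 at 0.439). The mean read coverage there was 0.185 to 0.554 for Hba-a1 and 0.409 for Hba-a2, against 16.0 to 72.8 and 10.5 to 50.6 in hippocampus. None of these 4 values reached 1 scaled TPM, while the lowest hippocampal value of any globin gene was 8.0. No fold is given because levels were scaled separately in the cells and the tissue.

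Alas2 was the exception. It was present in all 14 HT-22 libraries at 2.35 to 5.70 scaled TPM (median 5.06), inside or just above its hippocampal range of 1.24 to 5.12. In 3 scramble libraries that stood apart from the other 11, with Hmox1 at 275 to 366 against 46.2 to 61.0 scaled TPM, Alas2 was 2.35 to 3.64, against 4.42 to 5.70 in the others. Apex2, which encodes an endonuclease of DNA repair, runs on the opposite strand from chrX:150519519-150589868 and covers the whole of Alas2. Of the 2403 annotated exon bases of Alas2, 311 (12.9%), the whole of its last exon, lie in Apex2 exons, and 61 lie over the miRNA gene Mir3620. Apex2 was 4.90 to 9.72 in hippocampus and 23.7 to 41.0 in HT-22 cells, and Alas2 was 0.234 to 0.912 of Apex2 in hippocampus and 0.0991 to 0.205 in HT-22 cells. Over the hippocampal libraries Alas2 and Apex2 had r = 0.181 (permutation p = 0.485, also 0.485 adjusted), rho = 0.123 (0.64), and r = 0.321 without the 2 farthest libraries. The labels do not say if the counting used strand, so reads of Alas2 and Apex2 cannot be told apart where they overlap. The part of this overlap in the Alas2 level was not tested.

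**Figure D5:**
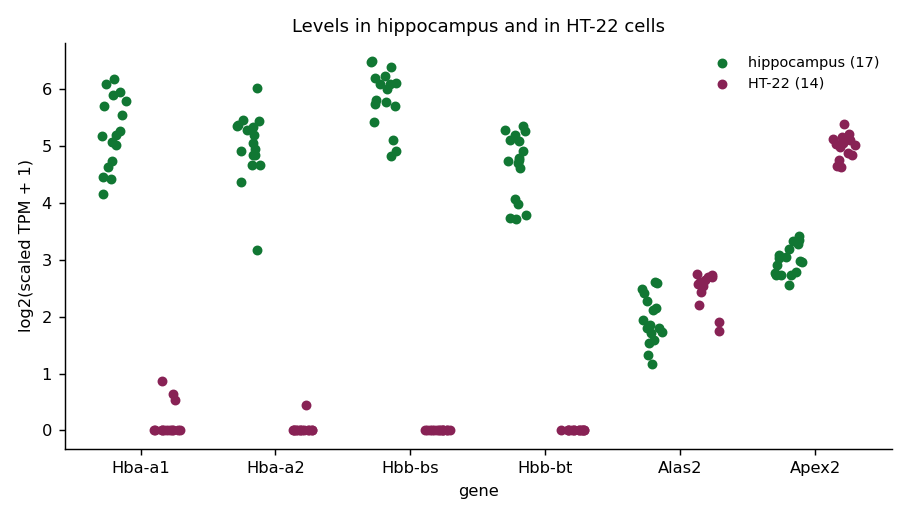
Levels of the 5 members and of Apex2 as log2(scaled TPM + 1) (vertical axis) in 17 hippocampal libraries (green) and 14 HT-22 libraries (purple), scaled separately. Points are libraries; Hbb-bs and Hbb-bt sit at 0 in every HT-22 library, whereas Alas2 and Apex2 are above 0 in all of them.

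Other genes of the erythroid programme were read from lists. In the list of erythroid membrane, cytoskeleton and enzyme genes, 20 of 22 symbols were matched in the files and 7 passed the filter. Rhag, Hemgn and Cldn13 were listed at 0 in all 17 hippocampal libraries, and Slc4a1, the anion exchanger band 3, reached at most 0.126 scaled TPM in 3 of them. Of the 7 erythroid transcription factors, Gata1 and Gfi1b were listed at 0 throughout and Klf1 was at most 0.245. The embryonic globins Hbb-bh1, Hbb-bh2, Hbb-y and Hba-x were listed at 0 in every library of both kinds. These genes were named because they were at or near 0, and others were not. In each library 9 to 13 of the 20 matched membrane, cytoskeleton and enzyme genes were above 0, as were 3 to 5 of the 7 transcription factors. Of the 9 globins listed besides the members, 2 passed the filter, and the 9 summed to 14.5 to 27.5 scaled TPM.

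Members of these lists that passed the filter and are also expressed outside red cells included Bnip3l at 45.5 scaled TPM, Mkrn1 at 37.1 and, in the transcription factor list, Bcl11a, a repressor of fetal globin that is also active in neurons, at 27.9. In the genotype comparisons 1 of the 7 was called, at 12 months, where 0.454% of all genes were called. This was Tent5c, a poly(A) polymerase, at 4.77, 3.68 and 4.37 scaled TPM in APP against 0.858, 1.60 and 0.981 in controls. The rise was 1.31 ± 0.24 (limma adjusted p = 0.0214). Tent5c also rose between 3 and 12 months in APP by 1.25 ± 0.24 (adjusted p = 0.0118), where 3.34% of all genes were called. The groups did not overlap at 12 months. The median change of the 7 was 0.18 at 3 months, -0.115 at 6 months and 0.13 at 12 months, against 0.01, 0.00 and 0.00 for all genes. The whole list summed to 186 to 272 scaled TPM in APP and 281 to 284 in controls at 3 months. At 6 months it summed to 228 to 259 and 273 to 286. The 2 transcription factors that passed the filter had a median change of -0.59 at 3 months and 0.10 at 6 months, with 0 called.

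The 8 other enzymes of haem synthesis, led by Urod (22.7), Cpox (21.1) and Alas1 (17.8), the form of the first enzyme found in all tissues, were present in every library, and none was called in any comparison. Their median change was 0.04 at 3 months and -0.14 at 6 months. Of the haem and iron handling genes, 10 of 13 passed the filter. Tfrc, the transferrin receptor, fell in APP at 6 months by 0.56 ± 0.11 (-0.555, limma adjusted p = 0.0293), with 42.0, 41.0 and 42.3 scaled TPM against 56.8, 65.2 and 63.9. It was the 1 of the 10 called there, against 1.43% of all genes. Hmox1, the inducible haem-degrading enzyme, rose between 3 and 12 months in APP by 0.91 ± 0.21 (0.905, adjusted p = 0.0305), from 2.33, 1.63 and 2.72 to 6.15, 4.21 and 4.73. It was the 1 of the 10 called there, against 3.34% of all genes. No globin gene was called between those APP groups. The haptoglobin gene Hp was at most 0.509.

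Markers of other blood cells and of vessels were set beside the globins. The summed level of 7 neutrophil markers was 0 to 1.36 scaled TPM and that of 6 lymphocyte markers 0 to 0.177, with Ngp, Ly6g, Cd3d, Ms4a1 and Nkg7 listed at 0 in all 17 libraries. The 6 platelet markers summed to 0.826 to 4.58, with Treml1 at 0. The 8 endothelial markers summed to 31.4 to 39.7 in APP and 27.2 to 40.2 in controls at 3 months, to 22.4 to 26.0 and 24.7 to 27.1 at 6 months, and to 32.8 to 39.8 and 18.0 to 30.1 at 12 months. No endothelial or mural marker was called in any comparison, and no platelet, neutrophil or lymphocyte marker passed the filter. The part of vessel content in the globin differences was not tested.

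Markers of choroid plexus, a tissue rich in blood vessels, differed widely between libraries. The 7 markers, mostly the transthyretin gene Ttr, summed to between 38.7 and 914 scaled TPM in APP at 6 months and to 1148 to 1353 in controls. At 3 months they were 591 to 2457 in APP and 1020 to 1491 in controls. The 6-month library with 38.7, APP replicate 2, also had the lowest beta sum of its group, 45.9, and without it the beta sum changed by -0.79 at 6 months (limma adjusted p = 0.126). Other libraries went the other way. Control replicate 1 at 12 months had the lowest marker sum of its group, 422.8, and the highest beta sum of all hippocampal libraries, 127.0. Control replicates 1 and 2 at 3 months had marker sums of 1491 and 1020 with beta sums of only 42.2 and 39.7. The library with 2457, APP replicate 1 at 3 months, stood apart with a neuronal marker sum of 1668 against 2377 or more in the other 16. Without it the 3-month beta change was 1.19 (adjusted p = 0.107). The part of choroid plexus in these differences was not tested.

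Among the genes that passed the filter, the 10 most like the globins over the 17 libraries were not in the erythroid lists. Erythroid genes at or near 0, such as Slc4a1 and Gata1, did not pass the filter and could not be ranked. With the mean of the log2 alpha and beta sums, the 10 highest Pearson r were those of Gm10243 (0.831), Cdc26 (0.822), Crip1 (0.809), Eif5 (0.798), Sdhaf3 (0.795), Trim59 (0.794), Selenoh (0.784), Rps21 (0.782), Gm11353 (0.772) and Rpl35a-ps2 (0.772). Gm10243, Gm11353 and Rpl35a-ps2 are processed pseudogenes, whose reads may be shared with parent genes. Deviations from group means gave r from 0.239 (Rps21) to 0.729 (Cdc26) for these genes. All 10 had a mean above 0 in HT-22 cells, from 0.0597 scaled TPM for Crip1 to 185 for Gm11353, where the adult beta globins were at 0. Alas2 had r = 0.253 on the same measure. The median r with the globins was 0.334 over the 289 genes with transcripts under 800 bases and -0.09 over those of 4000 bases or more, a description across genes, which are not independent.

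The hippocampal tables held no raw counts, so the number of reads behind a value is not known. The mean read coverage per unit of FPKM, which scales with depth, ranged from 1.42 to 3.04 over the hippocampal libraries and from 0.724 to 2.60 over the HT-22 libraries. Neuronal markers such as Snap25 (652 to 934 scaled TPM) were high in every hippocampal library.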

How the data were processed

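RNA was fragmented, depleted of ribosomal RNA and sequenced, per the labels' protocols, and the submitters' processing notes name FastQC, cutadapt 1.18, BWA 0.7.17, HISAT2 2.1.0, bedtools 2.26.0 and StringTie 1.3.4d with builds mm10 and GRCm38, without their roles. Per the file headers, the deposited tables give coverage, FPKM and TPM per gene. TPM was summed per gene identifier and divided by median-of-ratios factors. Scaled TPM was tested as log2(value + 1) with limma 3.58.1 in R 4.3.3 (trend and robust) over 17840 genes (mean TPM not under 1) and 6 groups, with Benjamini-Hochberg adjustment (threshold 0.05). Single sums were tested by exact permutation within age, and correlations with 100000 permutations (scipy 1.17.1). On simulated data for the 6-month comparison (17840 genes), 69% of log2 changes of 1 and 95% of changes of 2 were recovered, with 4 false calls. The simulated noise was independent and held no trend with scaling or transcript length. The simulation therefore gives no rate of false calls for the measured libraries.

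Separate numbered libraries were taken as replicates. The labels give hippocampi of both hemispheres pooled per mouse, and nothing says that HT-22 libraries came from separate cultures, so their spread may be technical. Members and lists were chosen with earlier results of these data known. Named list genes are those called or else those of highest mean (some list genes are not reported here), and the 10 genes of highest r were named. Of the list symbols, Ahsp and Fam46c did not match a name (Fam46c is listed again as Tent5c), and Tf matched Trf through RefSeq synonyms. The transcript length trend (lowess on the longest GENCODE M21 transcript, 17830 genes) and the 800-base class were chosen after seeing the data. Short-RNA files were not used.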

Additional observations from a re-analysis of the deposited data

Results flagged for a closer look

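The difference between APP and control mice changed with age for the beta-globin genes, by limma's interaction test: F was 24.8 for Hbb-bs (24.778, adjusted p = 0.0173), 16.7 for Hbb-bt (16.696, adjusted p = 0.0413) and 24.2 for their sum (24.235, adjusted p = 0.0196). All APP libraries lay above the controls at 3 months and below them at 6 months in scaled TPM. The share of all genes that separate the genotypes at these ages was not counted. Genotype and the sex-linked pattern cannot be told apart at 6 and 12 months, so age and sex cannot be told apart in the interaction. Leaving out some single libraries ended the Hbb-bt call (limma adjusted p = 0.0947 without APP replicate 3 at 6 months).

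In HT-22 cells 1 library stood far from the other 3 of its group for alpha globin, which were at 0. For Hba-a1 this was a library with scramble LNA and amyloid beta 1-42 (0.823 scaled TPM) and a library with scramble LNA and the reversed peptide (0.439), and for Hba-a2 the latter library again (0.369). Both belong to the libraries in which Alas2 was lowest among the scramble-treated cells. With the other 3 libraries of a group at 0, any value above 0 stands apart in this way.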

How the results depend on the processing

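The beta-globin rise at 3 months and fall at 6 months kept their direction in Hbb-bs and Hbb-bt under every alternative run, and their calls did not hold under all of them. The number of members called at 3, 6 months, between 3 and 12 months in controls and in the interaction was 1, 1, 1 and 2. With TPM as deposited it was 0 in each of the first 3, where all genes shifted by a median of -0.16, 0.60 and -0.29, and with no filter on low values it was 0, 0, 0 and 1. Array weights gave 0 at 3 and 6 months, and fitting the groups of that age alone gave 0 at both. A minimum mean TPM of 5 gave 2 at 6 months. Removing the length trend gave 0 at 6 months, 0 in controls and 1 in the interaction. Leaving out each library in turn gave 0 to 2 in each of these 4 comparisons. The replicate numbers did not pair the samples (correlations of same-numbered libraries from -0.064 to 0.117 over 8 pairs), and with a replicate block 2 members were called at 6 months.

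Uncalled differences changed sign as follows, and the cause was not tested. With TPM as deposited the 6-month differences were 0.185 for Hba-a1, 0.079 for Hba-a2 and 0.470 for Alas2, the 12-month difference was 0.022 for Hbb-bt, and Alas2 between 3 and 12 months in APP was 0.0 (0.013 with a pseudocount of 5). Hba-a1 between 3 and 12 months in APP was -0.118 with array weights, -0.054 with copies summed (-0.055 at 12 months) and -0.045 without the length trend. Leaving out 1 library gave these ranges: for Alas2, -0.379 to 0.154 at 6 months, -0.161 to 0.466 at 12 months, -0.033 to 0.739 between ages in controls and -0.291 to 0.336 in APP. For Hba-a1 it gave -0.244 to 0.409 at 12 months and -0.196 to 0.263 between ages in APP, and for Hbb-bt -0.504 to 0.090 at 12 months. For Hbb-bs it gave -0.205 to 0.062 between ages in APP. Averages over ages ranged from -0.203 to 0.354 for Hba-a2, -0.047 to 0.068 for Hbb-bs, -0.099 to 0.099 for Hbb-bt and -0.060 to 0.078 for the beta sum by permutation. By coverage the Hbb-bs share was 65.6%. At a threshold of 1 scaled TPM, 0 HT-22 libraries held Hba-a1 and 0 held Hba-a2. With no counts deposited, depth limits the low values, those of Alas2 above all.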
